A study of Mus musculus with 576 samples.

Results

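Low-Mcm cells are the 141 of 563 cultured erythroid progenitor cells with the lowest transcript levels of Mcm2, Mcm3, Mcm4, Mcm5, Mcm6 and Mcm7. For each cell the log2(CPM + 1) values of these 6 genes were averaged into an Mcm score, where CPM is counts per 1000000 counts of that cell. The lowest 25% of all cells, ranked over the 6 plates at once, were the low-Mcm cells, and the other 422 cells of the same plates served for comparison. The cells were thus chosen by the measured levels of these 6 genes alone. The cells came from livers of C57/Bl6J mouse embryos at day 14.5, were depleted of cells carrying Ter119, CD41, CD16/32, Sca-1, CD11b, Ly-6G, CD45R or CD3e, and were sorted with CD117, CD71 and CD24 for BFU-E cells, the burst forming units of the erythroid line. All 6 groups were grown in 100 ng/mL stem cell factor, 40 ng/mL insulin-like growth factor 1 and 2 U/mL erythropoietin for 24, 48 or 72 hours (days 1, 2 and 3). The 3 control groups had no further agent, and the 3 dexamethasone groups also had 100 nM of this synthetic glucocorticoid. Each group is 1 plate, so plate, day and treatment cannot be told apart within a day, and the labels do not name an animal or a culture for a plate. Each p-value is thus set against differences from plate to plate, some or all of which may be technical.

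Mcm2 to Mcm7 are the subunits of the helicase that unwinds DNA at replication forks. The complex is loaded onto origins in G1 by the origin recognition complex together with Cdc6 and Cdt1, and it is started in S phase. Its genes are known targets of E2F factors, which the retinoblastoma protein holds in check until cyclin E and cyclin D kinases release them. BFU-E cells divide many times before their descendants take up iron, fill with hemoglobin and leave the cell cycle, and glucocorticoids are known to prolong the dividing phase.

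Promoters are shown because the genes of the rule are textbook E2F targets; their joint drop is fixed by the rule and says nothing about E2F. RefSeq promoters (GRCm38.p6, 250 bases before to 50 after the start of transcription, 300 in all) were matched for 5 of the 6 genes. They were searched on both strands for the E2F words TTTCCCGC, TTTCGCGC, TTTGCCGC and TTTGGCGC, some of which overlap each other where a word of one strand runs into a word of the other. A word was found in 4 of the 5 genes, Mcm3, Mcm5, Mcm6 and Mcm7, against 704 of 27025 genes of the whole table (2.60%). Of 31 other replication genes with a promoter, 13 held a word (41.9%), among them Cdc6, Orc1 and Dtl. Of 17 nucleotide supply genes, a list that was also lower in low-Mcm cells, 1 held a word (5.88%). Of 25 mitosis genes 1 held a word (4.0%), of 17 late red cell genes 0 and of 6 globin genes 0, while of 20 Myc and ribosome biogenesis genes 4 did (20%). No word was found for Mcm2, Ung, Pcna, Rrm2, Ccne1 or Tcf19, which says only that these letters are not in the window. In the stretches below, written 5′ to 3′ along the gene, capitals mark the word or its complement on the opposite strand. The first 4 are genes of the rule and the last 3 are loading or replication genes described further on. A match is a description of letters, not a bound site.

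Mcm3, chr1:20820263-20820292, minus strand: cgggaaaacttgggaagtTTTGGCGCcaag
Mcm5, chr8:75109330-75109389, plus strand: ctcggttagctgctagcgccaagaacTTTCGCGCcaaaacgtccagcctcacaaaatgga
Mcm6, chr1:128359719-128359778, minus strand: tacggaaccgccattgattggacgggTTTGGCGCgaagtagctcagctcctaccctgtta
Mcm7, chr5:138172015-138172074, minus strand: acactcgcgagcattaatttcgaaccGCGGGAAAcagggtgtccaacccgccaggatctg
Cdc6, chr11:98907987-98908046, plus strand: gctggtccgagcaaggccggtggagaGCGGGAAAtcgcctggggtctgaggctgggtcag
Orc1, chr4:108579394-108579453, plus strand: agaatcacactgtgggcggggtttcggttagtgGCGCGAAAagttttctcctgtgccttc
Dtl, chr1:191575545-191575604, minus strand: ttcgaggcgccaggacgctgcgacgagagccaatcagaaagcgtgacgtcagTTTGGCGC

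The low-Mcm cells were 6 of 94, 19 of 96 and 31 of 93 cells on control days 1, 2 and 3, and 10 of 94, 41 of 92 and 34 of 94 on the dexamethasone days. The shares were 6.38%, 19.8% and 33.3% in control (exact Clopper-Pearson 95% intervals 2.38 to 13.4, 12.4 to 29.2 and 23.9 to 43.9) and 10.6%, 44.6% and 36.2% with dexamethasone (5.22 to 18.7, 34.2 to 55.3 and 26.5 to 46.7), where the intervals cover counting error only. Day 1 held the lowest shares in both cultures. These shares follow from the rule and carry no test. The highest score of a low-Mcm cell was 8.824 and the lowest of another cell 8.825, with 34 low-Mcm cells and 45 other cells within 0.25 of the limit, so the limit cuts through a continuous range. Low-Mcm cells scored between 1.90 and 8.82 with a median of 8.06, and all 6 genes had a count in 140 of the 141.

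How far the score fell differed between plates. The median score of the low-Mcm cells was 8.09, 7.30 and 5.65 on control days 1, 2 and 3 and 8.33, 8.21 and 8.10 on the dexamethasone days, against 9.87, 9.82 and 9.73 and 9.59, 9.32 and 9.24 in the other cells. A score under 6 was found in 0, 4 and 16 cells of the control plates and in 0, 3 and 3 cells of the dexamethasone plates. Low-Mcm cells with very low scores were thus most numerous on control day 3, as the scores by plate show.

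**Figure D1:**
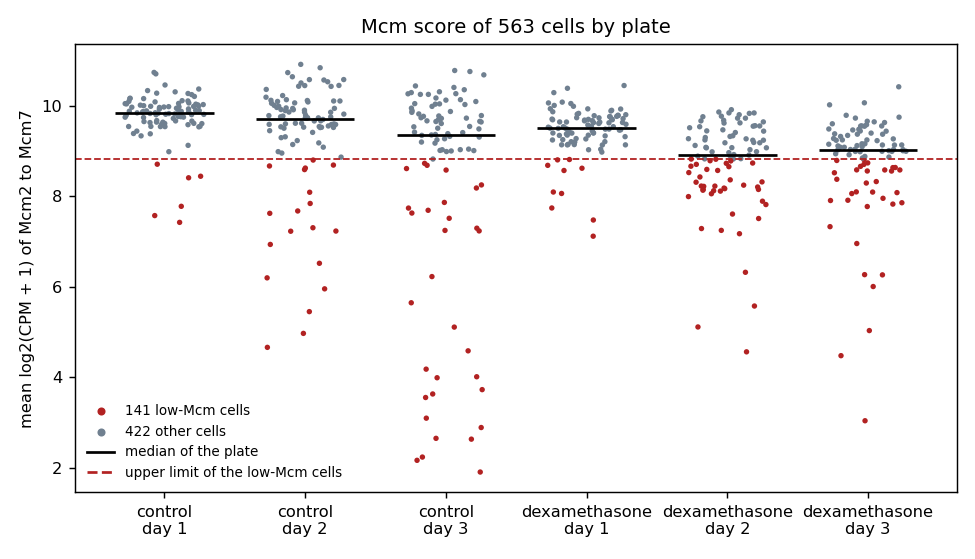
Mcm score (mean log2(CPM + 1) of Mcm2 to Mcm7, vertical axis) of every cell on the 6 plates (horizontal axis), with low-Mcm cells in red, other cells in grey, the plate median as a black bar and the upper limit of the low-Mcm cells as a dashed line. Control day 3 has a long tail with 16 cells under a score of 6, while dexamethasone days 2 and 3 have 3 such cells each.

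Counts were then summed over the low-Mcm cells and over the other cells of each plate and scaled to CPM with TMM factors, giving 12 values per gene. Where 3 values follow each other they are those of days 1, 2 and 3, first in control and then with dexamethasone, and the second set is that of the other cells. Mcm6 stood at 207, 319 and 471 CPM on the control plates and 288, 372 and 376 CPM on the dexamethasone plates in low-Mcm cells, against 1252, 1127 and 1082 and 882, 782 and 805 CPM in the other cells. Mcm4 stood at 290.3, 221 and 154 CPM on the control plates and 166, 274 and 241 CPM on the dexamethasone plates, against 767, 805 and 766 and 584, 633 and 518 CPM. Every low-Mcm value of both genes lay under every value of the other cells. Here and below, the share of all genes with values so separated was not counted. The ratio was widest for Mcm6 on control day 1 (log2 -2.60) and narrowest for Mcm2 on control day 2 (log2 -0.45), where the low-Mcm cells still had 833 CPM. All 6 genes were lower on 6 of 6 plates, as the rule requires, with a median log2 ratio of -1.29.

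The libraries of low-Mcm cells were smaller. Their median total count was 704285, 719257 and 975658 on control days 1 to 3 and 901015, 954589 and 868596 on the dexamethasone days, against 968129, 1081890.0 and 1324712 and 1247015, 1141401 and 1193141 in the other cells. The difference was -0.134 log10 units (SD 0.0321, 6 plates) and went the same way on 6 of 6 plates (two-sided exact sign-flip permutation p = 0.03125, the smallest that 6 plates allow, adjusted over 3 measures 0.0469). At 200000 counts per cell, low-Mcm cells had 6979.5, 5269 and 3947 genes with a count on the control days and 7390.0, 7359 and 6914 on the dexamethasone days, against 7048, 6355 and 5542 and 7492, 7373 and 7304 (lower on 6 of 6 plates, exact permutation adjusted p = 0.0469). The gap was 1086 genes on control day 2 and 1595 on control day 3, and 14 to 390 genes on each other plate. The share of mitochondrially encoded counts differed by 0.0465 percentage points (SD 0.47, exact permutation p = 0.875). When the rule was applied to cells thinned to 200000 counts, 132 of the 141 were chosen again. Under that rule neither difference passed, with adjusted p = 0.09375 for depth (lower on 6 of 6 plates) and 0.1875 for genes with a count (lower on 5 of 6, exact permutation), and with the lowest 25% within each plate the gene count was lower on 4 of 6. The part of depth in the gene differences below was not tested.

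Low-Mcm cells had lower values of the E cyclins, of 24 of 39 further replication genes and of the nucleolar gene Ncl on 6 of 6 plates, and higher values of Malat1, Btg2 and Cdkn2d on 6 of 6. On control days 2 and 3 they also had several times more globin and late red cell transcripts, while on dexamethasone day 2 these were close to the levels of the other cells. No gene outside the rule passed edgeR's test over the 6 plates. With the plate as a block, edgeR's quasi-likelihood test called 0 of 15064 genes at an adjusted p under 0.05 (0.0%), with a smallest adjusted p of 0.0951 and 1894 genes at an unadjusted p under 0.05 (12.6%, of which 1361 or 9.03% were lower and 533 or 3.54% higher). DESeq2 on the same sums called 626 lower (4.32%) and 310 higher (2.14%), and limma on the mean of single-cell log2 values called 261 lower (1.73%) and 8 higher (0.0531%). Of all genes, 7.22% were lower on 6 of 6 plates and 3.50% were higher on 6 of 6. The median log2 fold change of all genes was -0.20 with TMM factors, -0.13 with DESeq2 size factors and -0.27 with library size alone, and list medians are to be read against it. All these genes were measured in the cells that the rule ranked, so genes that vary with Mcm transcripts through the cell cycle are not independent of the rule. Genes named as examples of a list were chosen after their values were seen. The E cyclins and Malat1 had among the highest and lowest rank correlations with the Mcm score, so their direction is close to given.

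Genes that load and start the helicase followed the rule. Cdc6, the loading factor, stood at 45.5, 94.2 and 81.7 CPM on the control plates and 40.03, 32.7 and 107 CPM on the dexamethasone plates in low-Mcm cells, against 248, 319.8 and 353 and 196, 205 and 186 CPM in the other cells. Its 6 low-Mcm values all lay under its 6 other values. Cdt1, its partner in loading, stood at 144, 61.1 and 70.6 CPM on the control plates and 197, 104 and 73.9 CPM on the dexamethasone plates, against 302, 366 and 273 and 272, 209.6 and 219 CPM. Orc1, a subunit of the origin recognition complex, stood at 23.5, 18.3 and 30.1 CPM on the control plates and 25.3, 12.6 and 38.6 CPM on the dexamethasone plates, against 75.5, 81.1 and 97.3 and 64.4, 40.7 and 59.9 CPM. The values of neither gene overlapped between low-Mcm and other cells. These genes are close relatives of the rule, so such a separation carries no test.

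Of 39 further replication genes, 39 had a negative log2 fold change (all genes 63.1%) and 24 were lower on 6 of 6 plates (all genes 7.22%). Of these genes 0 were higher on 6 (all genes 3.50%), and their median was -0.87. As close relatives of the rule they carry no test. The largest changes in this list were those of Ung, Cdc6 and Dtl. Ung, the enzyme that removes uracil from new DNA, stood at 25.8, 5.87 and 3.24 CPM on the control plates and 18.8, 12.2 and 25.2 CPM on the dexamethasone plates, against 94.3, 106 and 111 and 96.8, 89.1 and 73.3 CPM. Dtl, which helps to destroy Cdt1 in S phase, stood at 129, 44.6 and 42.8 CPM on the control plates and 142, 79.9 and 91.004 CPM on the dexamethasone plates, against 345, 277 and 323 and 268, 211 and 192 CPM. Ung on control days 2 and 3 was thus lower than on any other plate, and the low-Mcm values of Ung and of Dtl all lay under the other values.

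Fork and chromatin genes were less uniform. Pcna, the sliding clamp of DNA polymerase, stood at 320.2, 449 and 203 CPM on the control plates and 291, 202 and 253 CPM on the dexamethasone plates, against 362, 459.9 and 528 and 429, 436 and 459.7 CPM, so that it differed least on control days 1 and 2. Uhrf1, which carries DNA methylation through replication, stood at 117, 263 and 199 CPM on the control plates and 169.8, 83.3 and 141 CPM on the dexamethasone plates, against 557, 549 and 428 and 406, 350.01 and 314 CPM. Chaf1a, a histone chaperone of the fork, stood at 60.4, 72.8 and 66.8 CPM on the control plates and 73.5, 51.1 and 58.9 CPM on the dexamethasone plates, against 175, 161 and 124 and 143, 141 and 112 CPM. The low-Mcm values of Uhrf1 and Chaf1a all lay under the other values.

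Nucleotide supply genes had a median of -0.79, with 14 of 19 lower on 6 of 6 plates (all genes 7.22%) and 0 higher on 6 (3.50%). Gart and Ppat, enzymes of purine synthesis, were 2 of the 3 with the largest change, with Shmt1 of the folate cycle. Gart stood at 172, 199 and 55.3 CPM on the control plates and 232, 315 and 272 CPM on the dexamethasone plates, against 708, 443 and 326 and 607, 457 and 371 CPM. Rrm2, the small subunit of ribonucleotide reductase, stood at 395, 1931 and 1891 CPM on the control plates and 491, 396 and 547 CPM on the dexamethasone plates, against 1346, 1938 and 2474 and 1131, 1077 and 1134 CPM. The log2 ratio of Rrm2 was -0.00 and -0.39 on control days 2 and 3 and under -1 on the other 4 plates.

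Outside these lists, the genes most like the Mcm score across single cells were named by the mean of Spearman's rho over the 6 plates, among 6886 genes of at least 20 CPM. The highest means, with the range over plates, were those of Ccne2 at 0.512 (0.268 to 0.642), Ccne1 at 0.505 (0.196 to 0.723), Pold3 at 0.472 (0.199 to 0.610), Atad2 at 0.459 (0.184 to 0.650) and Tcf19 at 0.454 (0.260 to 0.639). Ccne1 and Ccne2 are the E cyclins that drive entry into S phase, and Pold3 is a subunit of a replicative DNA polymerase. Among the lowest were those of Malat1 at -0.446 (-0.653 to -0.256), Myl6 at -0.305 (-0.378 to -0.235), Gtpbp2 at -0.263 (-0.447 to -0.112) and Arhgdib at -0.250 (-0.480 to 0.030). The cells of a plate share its depth range and handling, and these values are a description.

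The E cyclins were lower in value on 6 of 6 plates. Both had a high rho with the Mcm score, so this direction is close to given. Ccne2 stood at 26.02, 36.9 and 24.6 CPM on the control plates and 35.7, 35.7 and 38.95 CPM on the dexamethasone plates in low-Mcm cells, against 139.5, 180.3 and 279 and 145, 144 and 127 CPM. Ccne1 stood at 195, 276 and 102 CPM on the control plates and 75.4, 60.2 and 69.2 CPM on the dexamethasone plates, against 474, 489 and 477 and 258, 255 and 250.4 CPM, with a log2 difference of -1.68 ± 0.21 (SE; adjusted p = 0.0951, edgeR) and a lower value on 6 of 6 plates. The low-Mcm values of Ccne2 all lay under the other values, while for Ccne1 the low-Mcm value of control day 2 was above the other cells of the dexamethasone plates. Ccnd3, the D cyclin that sets the number of late erythroid divisions, was higher in value on 5 of 6 plates, at 576, 1976 and 2041 CPM on the control plates and 463, 316 and 622 CPM on the dexamethasone plates against 470.4, 967 and 1191 and 339.8, 332 and 488 CPM, with a log2 difference of 0.47 ± 0.16 (SE; adjusted p = 0.301, edgeR). Ccnd2 was furthest from the other cells on control days 2 and 3, where low-Mcm cells had 301 and 144 CPM against 443 and 426 CPM. Of 9 G1 cyclins and kinases, 8 had a negative log2 fold change (all genes 63.1%) and 4 were lower on 6 of 6 plates (all genes 7.22%). Their median was -0.70.

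The E2F and Rb families held genes with opposite differences on control days 2 and 3. E2f1, an activating E2F, stood at 16.97, 4.47 and 6.14 CPM on the control plates and 10.3, 16.7 and 10.4 CPM on the dexamethasone plates, against 16.1, 14.6 and 17.2 and 23.2, 22.4 and 19.7 CPM, with a log2 difference of -0.94 ± 0.36 (SE; adjusted p = 0.343, edgeR). E2f2, the erythroid-rich E2F, stood at 1.81, 359 and 498 CPM on the control plates and 4.06, 36.2 and 61.3 CPM on the dexamethasone plates, against 28.9, 119 and 163 and 19.1, 45.4 and 54.8 CPM. Rb1, the retinoblastoma gene, stood at 11.3, 278 and 296 CPM on the control plates and 21.1, 45.2 and 132 CPM on the dexamethasone plates, against 17.5, 86.3 and 90.5 and 16.5, 43.7 and 74.9 CPM. E2f2 and Rb1 were about 3-fold higher in low-Mcm cells on control days 2 and 3, and on dexamethasone days 2 and 3 E2f2 was near the level of the other cells. E2f4, a repressive E2F, had log2 ratios between -0.62 and 0.30 over the 6 plates. Of 13 family members 11 had a negative log2 fold change (all genes 63.1%) and 4 were lower on 6 of 6 plates (all genes 7.22%). On both control day 2 and control day 3, 3 were over 2-fold lower (all genes 14.5%). Over 2-fold higher on both were 3 (all genes 7.05%), namely E2f2, Rb1 and Tfdp2.

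Mitosis genes were higher in value on the control plates and dexamethasone day 1 and lower on dexamethasone days 2 and 3. In the sums, 30 of 31 mitosis genes had a positive log2 fold change (all genes 5552 of 15064) with a median of 0.35. Of the 31, 5 were higher on 6 of 6 plates (all genes 3.50%) and 0 were lower on 6 (all genes 7.22%). The list medians were 0.63, 1.19 and 0.62 on control days 1 to 3 and 0.62, -0.20 and -0.44 on the dexamethasone days. Ube2c, which marks cyclin B for destruction, stood at 835, 1346 and 858 CPM on the control plates and 465, 137 and 304 CPM on the dexamethasone plates in low-Mcm cells, against 211, 294 and 362 and 156, 106 and 284 CPM, with a log2 difference of 1.25 ± 0.31 (SE; adjusted p = 0.242, edgeR). Top2a, which untangles chromosomes before they separate, stood at 804, 1988 and 1093 CPM on the control plates and 611, 233 and 319 CPM on the dexamethasone plates, against 532, 890.4 and 709 and 346, 506 and 495 CPM, with a log2 difference of 0.25 ± 0.32 (SE; adjusted p = 0.771, edgeR). Ccnb1, the mitotic cyclin B, differed by a log2 value of 0.53 ± 0.28 (SE; adjusted p = 0.472, edgeR), and Mki67, the proliferation marker, one of 0.33 ± 0.23 (SE; adjusted p = 0.592, edgeR). Top2a, Ccnb1 and Mki67 were lower in value on dexamethasone days 2 and 3. With the mean of single-cell log2 values in place of summed counts all 3 turned, to -1.21, -0.34 and -0.15.

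Single cells lay apart in their mitosis score, the mean log2(CPM + 1) of the 31 genes. Of the low-Mcm cells, 70 of 141 (49.6%, Clopper-Pearson interval 41.1 to 58.2) lay in the lowest 25% of all cells by this score, against 71 of 422 other cells (16.8%, 13.4 to 20.7). The intervals pool cells of all plates, cover counting error only and are no test. By plate, that lowest 25% held 0 of 6, 7 of 19 and 19 of 31 low-Mcm cells on the control days and 2 of 10, 21 of 41 and 21 of 34 on the dexamethasone days. The other cells gave 11 of 88, 7 of 77 and 12 of 62 on the control days, and 13 of 84, 12 of 51 and 16 of 60 with dexamethasone. With every cell at 200000 counts the totals were 68 of 135 and 72 of 422. At the other end, 53 of the 141 low-Mcm cells were in the upper 50% of all cells by mitosis score.

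**Figure D2:**
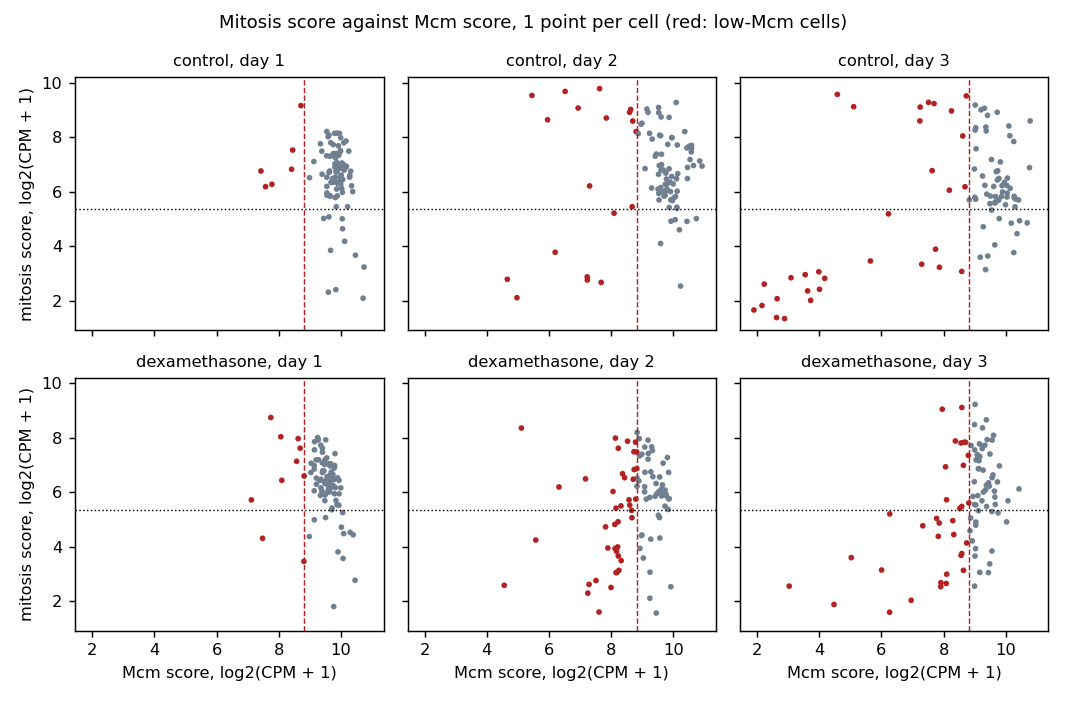
Mitosis score against Mcm score, both as mean log2(CPM + 1), 1 point per cell and 1 panel per plate. The dashed line is the upper limit of the low-Mcm cells (red) and the dotted line the upper limit of the lowest 25% of all cells by mitosis score. On control days 2 and 3 the low-Mcm cells range from low to high mitosis scores, with 7 of 19 and 19 of 31 under the dotted line.

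On control day 3, the 19 low-Mcm cells with a low mitosis score had a median Mcm score of 3.73, and the 12 others one of 7.66. Top2a had a median of 6.29 CPM (range 0 to 991) in the former and 2329 CPM (2.94 to 3506) in the latter. Hbb-bt, an adult beta globin, had medians of 6887 and 1928 CPM, and Cdkn1b, the inhibitor p27, medians of 57.96 and 20.98 CPM. At 200000 counts the cells with a low mitosis score had 3302 genes with a count and the rest 4698. On dexamethasone day 3 the 21 and 13 cells of the same classes were much closer, with Mcm scores of 7.86 and 8.58, Hbb-bt at 132 and 141 CPM, and 6702 and 7124 genes. On dexamethasone day 2 Hbb-bt stood at 5.14 and 11.2 CPM in the 21 and 20 cells. These classes were cut from measured scores and are ranges, not cell types.

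Cdkn1b, Cdkn2d and Cdkn1a, inhibitors of cyclin dependent kinases, had their largest values in low-Mcm cells of control days 2 and 3. Cdkn1b stood at 39.4, 121 and 118 CPM on the control plates and 6.09, 26.2 and 12.6 CPM on the dexamethasone plates in low-Mcm cells, against 6.68, 20.2 and 17.97 and 9.95, 19.9 and 13.4 CPM. On each control plate it was over 5-fold higher in low-Mcm cells, but on control day 1 the 6 cells had a median of 5.28 CPM and a highest cell of 170.1 CPM (other cells, median 1.78 CPM), and on the dexamethasone plates its log2 ratios were -0.70, 0.39 and -0.09. Cdkn2d, the inhibitor p19, stood at 54.3, 224 and 165 CPM on the control plates and 60.5, 36.7 and 34.9 CPM on the dexamethasone plates, against 16.8, 26.1 and 36.7 and 20.97, 20.3 and 24.1 CPM, with a higher value on 6 of 6 plates and a log2 difference of 1.64 ± 0.34 (SE; adjusted p = 0.199, edgeR). Cdkn1a, the inhibitor p21, stood at 11.5, 825 and 1271 CPM on the control plates and 34.6, 417 and 347 CPM on the dexamethasone plates, against 92.9, 449 and 424 and 55.2, 439 and 342 CPM, lower on both day 1 plates and higher on control days 2 and 3. Of 5 inhibitor genes tested, 1 was higher on 6 of 6 plates (all genes 3.50%) and 0 were lower on 6 (all genes 7.22%). On both control day 2 and day 3, 2 were over 2-fold higher (all genes 7.05%) and 1 was over 2-fold lower (all genes 14.5%). Of the 5, 3 had a negative log2 fold change (all genes 63.1%), and the list median was -0.11.

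Btg2, which slows division, stood at 82.6, 893 and 765 CPM on the control plates and 51.6, 143 and 195 CPM on the dexamethasone plates, against 27.7, 192 and 309.7 and 10.2, 79.8 and 106 CPM, with a higher value on 6 of 6 plates and a log2 difference of 1.53 ± 0.24 (SE; adjusted p = 0.117, edgeR). Mxd1, an antagonist of Myc, stood at 63.1, 586 and 2187 CPM on the control plates and 17.02, 83.8 and 131 CPM on the dexamethasone plates, against 19.7, 127 and 153 and 20.2, 74.3 and 81.7 CPM. Foxo3, a factor active in maturing red cells, stood at 69.9, 507 and 515 CPM on the control plates and 41.4, 129 and 149 CPM on the dexamethasone plates, against 77.6, 175 and 129.996 and 64.5, 91.7 and 100.2 CPM. Mxd1 and Foxo3 were over 2-fold higher on control days 2 and 3 and within 2-fold on dexamethasone days 2 and 3. Of 16 antiproliferative genes 3 were higher on 6 of 6 plates (all genes 3.50%). On both control day 2 and day 3, 6 were over 2-fold higher (all genes 7.05%). On both dexamethasone day 2 and day 3 it was 0 (all genes 2.28%). Txnip, in the same list, had log2 ratios between -0.75 and 1.25.

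Malat1 and Gtpbp2 were named for a low rho with the Mcm score, so higher values in low-Mcm cells are close to given. Malat1, a nuclear RNA, had the most negative rho. It stood at 681, 2117 and 3356 CPM on the control plates and 337, 749 and 894 CPM on the dexamethasone plates in low-Mcm cells, against 263, 468 and 454 and 213, 519 and 570.4 CPM, and was higher on 6 of 6 plates. Over single cells of control day 3 its median was 1822 CPM (range 403 to 11353), against 397 CPM (74.7 to 1437) in the other cells. Gtpbp2 stood at 38.2, 462 and 782 CPM on the control plates and 28.6, 45.4 and 67.8 CPM on the dexamethasone plates, against 12.7, 74.2 and 90.2 and 11.01, 28.6 and 30.7 CPM, also higher on 6 of 6 plates. The plate with the largest Malat1 difference, control day 3, also had the largest gap in genes with a count, and the part of this in the difference was not tested.

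**Figure D3:**
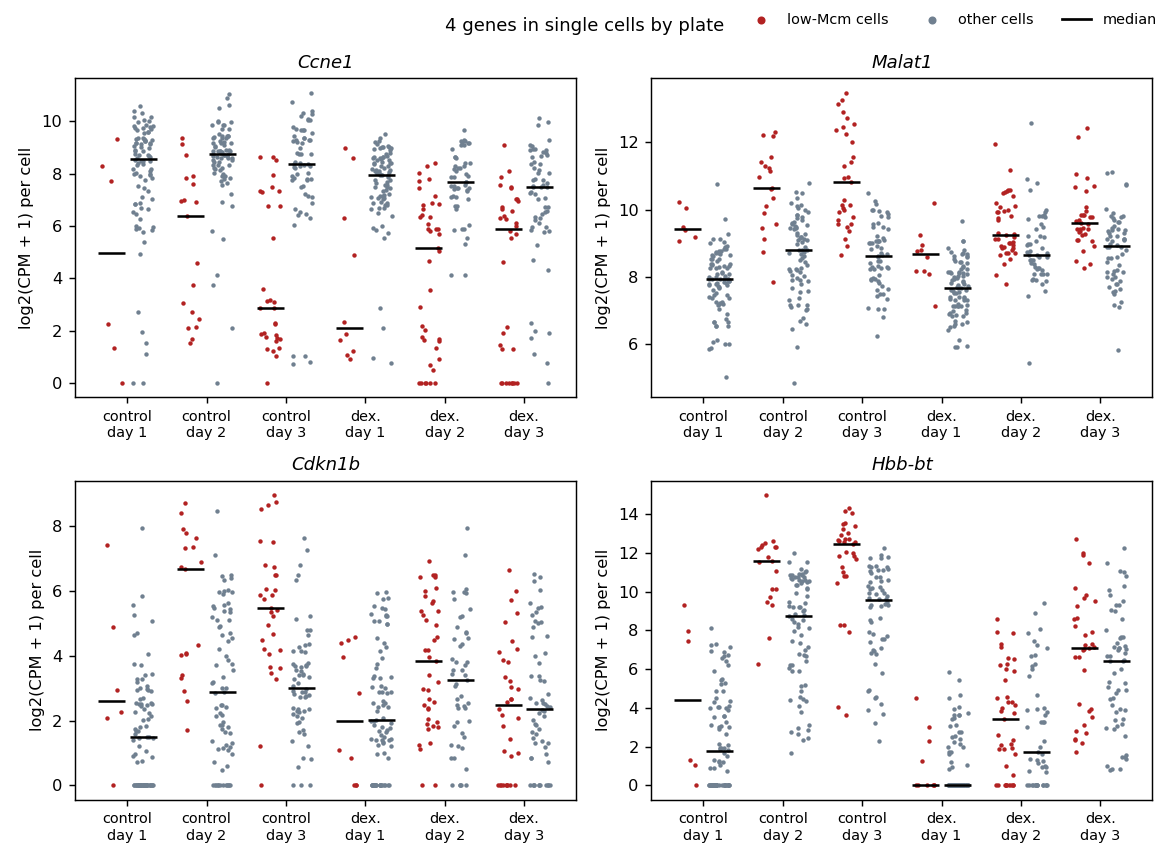
Ccne1, Malat1, Cdkn1b and Hbb-bt as log2(CPM + 1) in single cells (vertical axes) by plate (horizontal axes), with low-Mcm cells in red, other cells in grey, medians as black bars and dexamethasone shortened to dex. Ccne1 is lower and Malat1 higher in the median of low-Mcm cells on every plate, while the gaps in Cdkn1b and Hbb-bt are large on control days 2 and 3.

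Red cell genes were high in the low-Mcm cells of control days 2 and 3. Hbb-bt stood at 109.8, 3839 and 6941 CPM on the control plates and 2.13, 41.6 and 591 CPM on the dexamethasone plates in low-Mcm cells, against 22.1, 582 and 980.3 and 3.92, 45.2 and 312 CPM. On the control plates low-Mcm cells had log2 ratios of 2.31, 2.72 and 2.82. On dexamethasone days 1 and 2 they had no more than the other cells. The ratio of control day 1 rests on 6 low-Mcm cells with a median of 89.6 CPM. The higher of these cells had 630, 254 and 178 CPM, and the rest were at or near 0 CPM. In single low-Mcm cells of control day 3 Hbb-bt ranged from 11.6 to 20925 CPM with a median of 5721. The other cells of that plate had a median of 751 CPM, so the cells of the 2 sets overlapped. Over the 6 plates the log2 difference was 1.38 ± 0.55 (SE; adjusted p = 0.357, edgeR). Hba-a1, an alpha globin, stood at 135, 7943 and 11396 CPM on the control plates and 5.42, 127 and 1758 CPM on the dexamethasone plates, against 36.6, 1229 and 2158 and 9.96, 101 and 1083 CPM, with a log2 difference of 1.23 ± 0.48 (SE; adjusted p = 0.353, edgeR). Slc4a1, which exchanges chloride for bicarbonate across the membrane, stood at 0, 9962 and 9429 CPM on the control plates and 0, 0 and 507 CPM on the dexamethasone plates, against 1.33, 1407 and 1701 and 0, 0.145 and 414 CPM. The globin genes have near-identical copies whose reads may be split between them. Control days 2 and 3 were also the plates with the widest gaps in genes with a count and in median Mcm score. The part of these gaps in the red cell genes was not tested.

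Genes of heme synthesis and iron uptake were higher on control days 2 and 3 but, unlike the globins, lower in list median on control day 1, at -0.43, 1.39 and 1.49 in control and -0.56, 0.10 and 0.34 with dexamethasone. Alas2, the first enzyme of heme synthesis in red cells, stood at 6.11, 3343 and 6651 CPM on the control plates and 0.58, 18.999 and 350.1 CPM on the dexamethasone plates, against 7.53, 364 and 728 and 4.03, 17.97 and 133 CPM. Tfrc, the transferrin receptor, stood at 482, 9056 and 7922 CPM on the control plates and 299, 1365 and 1681 CPM on the dexamethasone plates, against 1362, 3077 and 4439.6 and 781, 1429 and 1536 CPM, higher on control days 2 and 3 and lower on both day 1 plates. Of 20 heme and iron genes 10 were over 2-fold higher on both control day 2 and day 3 (all genes 7.05%) and 0 on both dexamethasone day 2 and day 3 (2.28%).

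Of 25 late red cell and membrane genes, 17 were over 2-fold higher on both control day 2 and day 3 (all genes 7.05%). On both dexamethasone day 2 and day 3 it was 0 (all genes 2.28%). At so small a share of all genes, a count of 0 in a list of this size says little by itself. The list median was -1.19, 1.54 and 1.61 on the control days and -0.80, 0.13 and 0.24 on the dexamethasone days. Epb41, a protein of the membrane skeleton, stood at 151, 1132 and 1736 CPM on the control plates and 108, 229.8 and 201 CPM on the dexamethasone plates, against 142, 279 and 272 and 115, 216 and 182 CPM. Epb41 was over 3-fold higher on control days 2 and 3 and nearly level on the other plates.

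Organelle clearance, by which a maturing red cell loses mitochondria and ribosomes, had list medians of -0.12, 1.47 and 2.23 in control and 0.11, 0.08 and 0.10 with dexamethasone. Of 15 such genes 10 were over 2-fold higher on both control day 2 and day 3 (all genes 7.05%). On both dexamethasone day 2 and day 3 it was 0 (all genes 2.28%). Ube2l6, a conjugating enzyme for ubiquitin-like tags, stood at 17.2, 390.2 and 1168 CPM on the control plates and 15.96, 51.1 and 115 CPM on the dexamethasone plates, against 15.3, 76.4 and 143 and 12.3, 32.9 and 72.2 CPM. Map1lc3b, a coat protein of autophagosomes, stood at 115, 206 and 581 CPM on the control plates and 94.2, 95.7 and 113 CPM on the dexamethasone plates, against 72.9, 102 and 171 and 68.9, 77.9 and 110.4 CPM. Among erythroid regulators, Nfe2 stood at 206, 747 and 1617 CPM on the control plates and 217, 199 and 279 CPM on the dexamethasone plates, against 128, 220.1 and 370.02 and 145, 174 and 183 CPM, higher on 6 of 6 plates with a log2 difference of 0.99 ± 0.27 (SE; adjusted p = 0.257, edgeR). Gata1 and Klf1, the master factors of the lineage, had log2 ratios between -0.81 and 0.89.

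**Figure D4:**
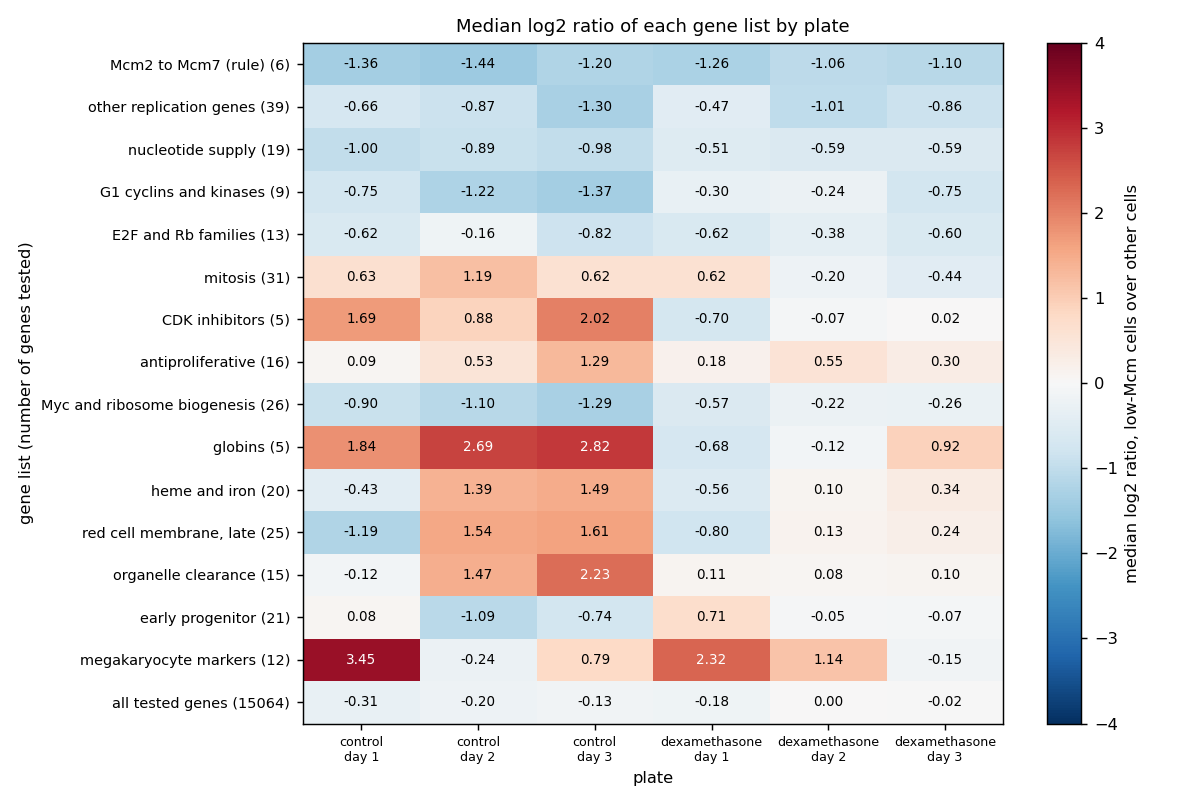
Median log2 ratio of low-Mcm over other cells (colour and printed number) for gene lists (rows, with the number of genes tested) on each plate (columns). Replication lists are below 0 on every plate, red cell lists are high on control days 2 and 3, and megakaryocyte markers are highest on the day 1 plates, at 3.45 and 2.32.

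Within control day 3, Hbb-bt was highest where the Mcm genes were lowest. The 16 cells with an Mcm score under 6 had a median of 8019.6 CPM of Hbb-bt (range 4335 to 20925), and the 15 low-Mcm cells above that score one of 1805 CPM (11.6 to 6005). Their median ribosome biogenesis score was 2.31 against 4.41. On control day 2 the 4 cells under a score of 6 had Hbb-bt between 3585 and 6352 CPM. The 3 such cells of dexamethasone day 2 had between 0 and 92.1 CPM, and the 3 of day 3 had 4.32, 132 and 6914 CPM.

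Growth genes had lower values in low-Mcm cells on most plates. Of 26 genes of Myc and ribosome biogenesis, 17 were lower on 6 of 6 plates (all genes 7.22%) and 0 were higher on 6 (all genes 3.50%), with a median of -0.73. DESeq2 called 8 of them lower (all genes 4.32%) and limma 4 (all genes 1.73%). Ncl, the abundant nucleolar protein nucleolin, stood at 2173, 1214 and 906 CPM on the control plates and 2087, 2191 and 1684 CPM on the dexamethasone plates, against 4559.7, 2988 and 2466 and 3651, 2707 and 2201 CPM, with a log2 difference of -0.89 ± 0.18 (SE; adjusted p = 0.193, edgeR). Myc itself stood at 216, 199 and 118 CPM on the control plates and 301, 315 and 400.03 CPM on the dexamethasone plates, against 547, 274 and 289 and 442, 375 and 454 CPM, lower on 6 of 6 plates with a log2 difference of -0.68 ± 0.20 (SE; adjusted p = 0.268, edgeR). The list medians were -0.90, -1.10 and -1.29 on the control days and -0.57, -0.22 and -0.26 on the dexamethasone days.

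Kit, the receptor for stem cell factor, stood at 222, 45.6 and 11.9 CPM on the control plates and 260.1, 713 and 232 CPM on the dexamethasone plates in low-Mcm cells, against 314, 155 and 60.3 and 501, 733 and 296 CPM, with a log2 difference of -0.98 ± 0.31 (SE; adjusted p = 0.288, edgeR). Kit differed least on dexamethasone day 2. Gata2, a factor of early progenitors, was higher in low-Mcm cells on control day 2 and dexamethasone day 1 and lower on the other 4 plates. Runx1 stood at 251, 109.6 and 219 CPM on the control plates and 179, 94.1 and 105 CPM on the dexamethasone plates, against 115, 69.5 and 68.8 and 91.7, 82.9 and 64.4 CPM, higher on 6 of 6 plates with a log2 difference of 0.88 ± 0.20 (SE; adjusted p = 0.215, edgeR). Of 21 early progenitor genes 7 were over 2-fold lower on both control day 2 and day 3 (all genes 14.5%) and 0 on both dexamethasone day 2 and day 3 (4.07%).

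Erythroid identity was checked on 12 markers. At least 3 of them reached 10 CPM in 140 of 141 low-Mcm cells and in 392 of 422 other cells. The summed markers stood at 3977, 33669.7 and 39217 CPM on the control days and 2212, 4104 and 10552 CPM with dexamethasone, against 3871, 10838 and 16081 and 2997, 3906 and 7906 CPM. The name low-Mcm describes a level and not an absence, since all 6 Mcm genes had a count in 140 of the 141 cells.

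Megakaryocyte markers were high in low-Mcm cells of day 1. The 14 markers summed to 5052, 559 and 346 CPM in low-Mcm cells of the control days and 2497, 1742 and 609.7 CPM with dexamethasone, against 486, 319 and 232 and 542, 836 and 700.4 CPM. On control day 1 the sum rested on 2 of the 6 cells, with 17311 and 16329 CPM, while the other 4 had 37.8 to 86.1 CPM. On dexamethasone day 1, 6 of 10 low-Mcm cells reached 1000 CPM, against 10 of 84 other cells. On dexamethasone day 2 these were 17 of 41 against 13 of 51, and over all plates 34 of 141 against 42 of 422. The limit of 1000 CPM was set after the values were seen. By the laxer measure of 3 markers at 10 CPM the sets were close, at 91 of 141 (64.5%) against 265 of 422 (62.8%), and on control day 1 the order was opposite, at 2 of 6 against 51 of 88. Itga2b encodes CD41, one of the antigens used for depletion before culture, and stood at 872, 68.7 and 108 CPM on the control plates and 544, 228 and 153 CPM on the dexamethasone plates, against 64.3, 40.6 and 34.05 and 112, 132 and 149 CPM.

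Gp9, part of the platelet receptor for von Willebrand factor, stood at 89.6, 38.2 and 17.5 CPM on the control plates and 105, 29.9 and 23.7 CPM on the dexamethasone plates, against 9.21, 13.2 and 10.1 and 20.7, 8.98 and 21.1 CPM, higher on 6 of 6 plates with a log2 difference of 1.64 ± 0.42 (SE; adjusted p = 0.242, edgeR). Pf4, platelet factor 4, stood at 893, 0 and 1.80 CPM on the control plates and 122, 224 and 0 CPM on the dexamethasone plates, against 12.5, 0.431 and 0.642 and 21.4, 18.7 and 7.56 CPM, and 1 cell gave 47.4% of its counts in low-Mcm cells. Of 12 megakaryocyte markers tested, 4 were higher on 6 of 6 plates (all genes 3.50%) and 0 were lower on 6 (all genes 7.22%). Both Hbb-bt and the marker sum reached 1000 CPM in 5 of 141 low-Mcm cells and 4 of 422 other cells, and on control day 3 in 3 of the 4 low-Mcm cells with a high sum. Hbb-bt alone or with the sum reached 1000 CPM in 14 of 19 and 26 of 31 low-Mcm cells of control days 2 and 3 (other cells 26 of 77 and 24 of 62), in 0 of 41 on dexamethasone day 2 (3 counts of the total, the limit that a count of 0 allows, are 7.32%; other cells 0 of 51) and in 5 of 34 on day 3 (other cells 7 of 60). In 63 of 141 low-Mcm cells neither Hbb-bt nor any of the megakaryocyte, neutrophil and mast cell sums reached 1000 CPM, 24 of them on dexamethasone day 2 and 26 on day 3, and the same held for 297 of 422 other cells (70.4%).

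**Figure D5:**
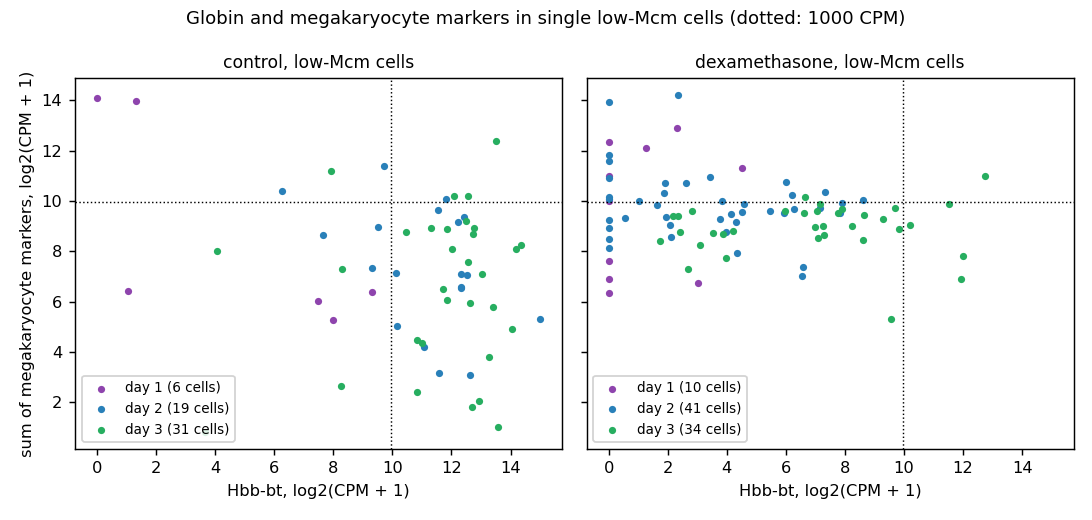
Sum of megakaryocyte markers against Hbb-bt, both as log2(CPM + 1), in single low-Mcm cells of the control (left) and dexamethasone (right) plates, coloured by day, with dotted lines at 1000 CPM. Control cells of days 2 and 3 lie mostly to the right, while 17 of 41 cells of dexamethasone day 2 lie above the horizontal line and 0 to the right of the vertical line.

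Neutrophil markers did not all go the same way in value. Of 13 markers, Mpo, Elane, Prtn3 and Ctsg, the granule proteases and peroxidase of early stages, were lower in low-Mcm cells over all plates, and the other 9 were higher. Of the 9, Ltf (0.479 against 0.337 CPM) and Camp (0.254 against 0.13 CPM) were barely detected, and Ms4a3 (16.9 against 14.9 CPM) was nearly level. The filter kept 5 of the 13 markers for testing, and all 5 had a negative log2 fold change (all genes 63.1%). Ngp, of later granules, had 180.6 CPM in low-Mcm and 0.0945 CPM in other cells, and S100a9 had 50.7 and 5.2 CPM. Mpo, the myeloperoxidase of neutrophil granules, stood at 11.8, 0 and 119 CPM on the control plates and 35.6, 3.04 and 175 CPM on the dexamethasone plates, against 1235, 2.78 and 1328 and 293, 708 and 547 CPM, lower on 6 of 6 plates with a log2 difference of -4.49 ± 0.98 (SE; adjusted p = 0.201, edgeR), and 1 cell gave 55.7% of its counts in low-Mcm cells. The 13 neutrophil markers reached a sum of 1000 CPM in 4 of 141 low-Mcm cells and 34 of 422 other cells, and 1 cell gave 96.9% of the sum in low-Mcm cells of control day 3. The sum there was 1666 CPM, against 19.3 and 2.53 CPM in low-Mcm cells of control days 1 and 2. With dexamethasone it was 68.9, 3.95 and 197 CPM on days 1, 2 and 3. How far each higher marker rests on the 1 cell of control day 3 was not tested. Cpa3, a mast cell protease, had 0 counts in low-Mcm cells of control day 2 and dexamethasone day 3 and was at or under 50.2 CPM elsewhere. Monocyte and macrophage markers summed to 1011 CPM in low-Mcm and 36.6 CPM in other cells of control day 3, with 56.1% of the former from 1 cell, and 3 of them reached 10 CPM in 2 of 141 and 15 of 422 cells. Lyz2 had 187.7 CPM in low-Mcm and 13.8 CPM in other cells over all plates. Hepatocyte markers, and endothelial and stromal markers, reached 3 genes at 10 CPM in 0 of 563 cells (up to 0.533%). The part of cells of other lineages in the gene differences was not tested, and counts with such cells left out are given in the closing section.

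Whether the low-Mcm difference itself changed with dexamethasone was tested by an interaction over the 6 plates. Hbb-bt, Hba-a1 and Cdkn1b had wider gaps on the control plates in value. On each day the gap in median Mcm score between low-Mcm and other cells, given above, was also wider in control. The low-Mcm cells of the 2 cultures are thus not alike in depth of the Mcm drop, and its part in these gaps was not tested. EdgeR called 0 of 15064 interactions (0.0%), with 994 at an unadjusted p under 0.05 (6.6%), and DESeq2 called 80 lower (0.576%) and 153 higher (1.10%). For Hbb-bt the difference had a dexamethasone coefficient (log2) of -2.58 ± 0.45 (SE; adjusted p = 0.703, edgeR), for Hba-a1 one of -2.24 ± 0.45 (SE; adjusted p = 0.703, edgeR) and for Cdkn1b one of -2.75 ± 0.46 (SE; adjusted p = 0.703, edgeR). DESeq2 called these 3 interactions, with adjusted p-values of 0.000104, 0.00093 and 2.26e-07. For Ncl the edgeR coefficient was 0.77 ± 0.23 (SE; adjusted p = 0.703, edgeR), a smaller drop with dexamethasone in value. No call in edgeR does not show that the differences are alike. With the day as a number, edgeR called 0 of 15064 genes for a change over days (0.0%), with 1051 at an unadjusted p under 0.05 (6.98%), and DESeq2 called 75 lower (0.563%) and 141 higher (1.06%).

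Among low-Mcm cells, those of the dexamethasone plates had less Hbb-bt and more Kit in value on every day. They were compared with low-Mcm cells of the control plates, with the day as an additive term. EdgeR called 0 of 13167 genes (0.0%), with 1165 at an unadjusted p under 0.05 (8.85%), and DESeq2 called 399 lower (3.36%) and 355 higher (2.99%). Hbb-bt differed by a log2 value of -5.27 ± 0.76 (SE; adjusted p = 0.525, edgeR) and was lower on 3 of 3 days. Kit had one of 2.99 ± 1.03 (SE; adjusted p = 0.526, edgeR), Ccnd3 one of -1.57 ± 0.53 (SE; adjusted p = 0.525, edgeR) and Btg2 one of -1.78 ± 0.46 (SE; adjusted p = 0.525, edgeR), each with the same sign on 3 of 3 days. In the other cells, by the values given above, Hbb-bt, Ccnd3 and Btg2 were also lower and Kit higher with dexamethasone on every day. The direction of these differences is thus not particular to low-Mcm cells. Direct targets of the glucocorticoid receptor served as a check of the labels. The median log2 difference of this list between low-Mcm cells of dexamethasone and control was 0.69 (all genes 0.18), and examples follow. Mt2, a metallothionein, had 11.8, 3.27 and 0 CPM in low-Mcm cells of control and 51.6, 197 and 79.4 CPM in those of dexamethasone. Tsc22d3, also called Gilz, stood at 23.99, 39.6 and 62.997 and 143, 74.9 and 52.8 CPM, and was thus lower with dexamethasone on day 3. Fkbp5, a chaperone that dampens the receptor, stood at 5.20, 2.54 and 5.49 and 42.4, 29.9 and 21.3 CPM in low-Mcm cells and at 21.5, 18.9 and 14.9 and 37.8, 52.9 and 28.8 CPM in the other cells. Its log2 difference between low-Mcm and other cells was -1.22 ± 0.44 (SE; adjusted p = 0.322, edgeR), and it was lower in low-Mcm cells on 5 of 6 plates.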

How the data were processed

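Single wells were sequenced on 6 plates of 96 wells, 1 plate per day and treatment. Per the submitters' processing notes reads were aligned with STAR 2.4 to GRCm38 and counted with featureCounts. The authors deposited a table of raw counts, in whole numbers per gene, without normalization or molecular identifiers, and whether counting used strand is not given in the sources used here. Of 576 value columns, 575 matched a labelled well and 1 was not used. Wells with at least 50000 counts, at least 1500 genes and at most 20% mitochondrially encoded counts were kept (563 of 575, with totals of 66140 to 3757116 and 1092431 in the median well). Doublets were not called, since cells were sorted into wells.

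The members and the gene lists were chosen with earlier results of these data known. Counts were summed per plate over low-Mcm and over other cells and tested with edgeR 4.0.16 (R 4.3.3, filterByExpr, TMM factors, quasi-likelihood, the plate as a block, 5 residual degrees of freedom, Benjamini-Hochberg adjustment over all genes tested). Interactions with dexamethasone and with the day were tested in the same way, and low-Mcm cells of both treatments in a fit with the day as an additive term. Ratios per plate are log2 of TMM-scaled CPM with a prior count of 2. DESeq2 1.42.0 and limma 3.58.1 were alternatives. Values per cell are log2(CPM + 1). Scripts were tested on simulated counts with a dispersion of 0.05. The data had a common dispersion of 0.49 for low-Mcm against other cells and 0.66 for dexamethasone against control low-Mcm cells. The power of the tests at these dispersions was not examined. Depth was compared over plates by exact sign-flip permutation in Python 3.11.15 with scipy 1.17.1. To compare genes with a count, each cell was thinned to 200000 counts, leaving out 6 low-Mcm cells and 0 other cells.

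Genes past the threshold were to be named by size of change with a mean of at least 20 CPM and no cell holding over 30% of the counts; none passed, so named genes are list members, genes most like the Mcm score, and genes added after their values were seen (such as Ube2c, Nfe2, Runx1, Mxd1, Foxo3, Gp9, Itga2b and Ncl). Some genes that these rules name are not reported here. The limits of 1000 CPM and of a score of 6 were also set after seeing the data. The 2-fold counts use control days 2 and 3 and dexamethasone days 2 and 3, where each plate had 19 or more low-Mcm cells.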

Additional observations from a re-analysis of the deposited data

Results flagged for a closer look

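Mki67, the proliferation marker, was higher in low-Mcm than in other cells on 3 of 3 control plates, with log2 ratios of 0.49, 1.48 and 0.41 on days 1, 2 and 3, and lower on 3 of 3 dexamethasone plates, with -0.02, -0.21 and -0.15. The mean log2 ratio was 0.92 higher on the control plates. It stood out because, with TMM factors, every plate of each culture went its own way. On dexamethasone day 1 the median of all genes was -0.18 with TMM factors, -0.11 with size factors and -0.06 with library size alone. A shift of that size turns the sign of the Mki67 value of -0.02, so the sign on that plate rests on the scaling. The interaction of edgeR's quasi-likelihood test gave -0.92 (adjusted p = 0.707), which does not pass the threshold. The share of low-Mcm cells with a low mitosis score on these plates is given above, and its part in the difference was not tested.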

How the results depend on the processing

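EdgeR called 0 genes in each comparison and with DESeq2 size factors, while the DESeq2 test called 936 for low-Mcm against other cells, 233 for the interaction with dexamethasone, 216 for that with the day and 754 for dexamethasone against control low-Mcm cells. Low-Mcm against other cells gave 269 calls with limma on single-cell means, 24 without the plate block and 8 against the upper 50% of cells, and dexamethasone against control low-Mcm cells gave 1 without a filter. The cause was not tested. Leaving out any plate gave 0 edgeR calls in every comparison, as did leaving out myeloid and mast cells in all 4 and the day 1 plates in 3 comparisons, both chosen after seeing the data. No paired analysis was possible because the replicate numbers are positions of wells on a plate, which sums over cells do not carry. The plate, shared by low-Mcm and other cells, and the day are already terms of the fits.

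Choosing the lowest 25% within each plate made the shares 25.5% on control day 1 and dexamethasone days 1 and 3 and 25% on dexamethasone day 2. The lowest 10% gave 2.13% on both day 1 plates, 9.78% on dexamethasone day 2 and 8.51% on day 3. Without cells carrying markers of any other lineage, 192 cells with 48 low-Mcm cells were left, with shares of 3.57%, 22.2% and 54.5% on the dexamethasone days, and dexamethasone against control could not be fitted.

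The depth difference (log10 counts) was -0.0766 within plates, -0.159 for the lowest 10%, -0.0999 with the rule in thinned cells, -0.137 without other lineages, -0.131 without myeloid and mast cells and -0.121 at 300000 counts or more. Differences in genes with a count were, in the same order, -499.3, -1253, -499.25, -1167, -549.9 and -506.2. None of these 12 passed, and 3 or 4 plates, as left by some settings, cannot reach an adjusted p under 0.05. Leaving out a plate gave -0.146 to -0.126 and -648.2 to -332.0, where 5 plates cannot reach the threshold either. The mitochondrial difference turned to -0.0752 within plates, -0.224 for the lowest 10%, -0.349 without other lineages, and, leaving out a plate, ranged from -0.0629 (without control day 1) to 0.18 (without control day 3), with -0.0511 without dexamethasone day 3.

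Top2a turned to -1.21 (limma), -0.0781 (within plates), -0.86 (lowest 10%) and -0.000206 (without the day 1 plates), Ccnb1 to -0.34 (limma) and -0.27 (lowest 10%), and Mki67 to -0.15 (limma) and -0.0549 (lowest 10%). Of the other values of single genes, 568 kept direction and side of the threshold and 21 newly passed it.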

Other observations

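Slc2a3, a glucose transporter, stood at 159, 1049 and 1383 CPM on the control plates and 78.3, 1115 and 207 CPM on the dexamethasone plates in low-Mcm cells, against 86.8, 309.9 and 245 and 91.8, 559 and 119 CPM in the other cells (days 1, 2 and 3), with a log2 difference of 1.11 ± 0.33 (SE; adjusted p = 0.269, edgeR). It was higher on 5 of 6 plates, dexamethasone day 2 included, where the red cell genes were level. The median of 20 glycolysis and hypoxia genes was -0.30, and 0 of them were higher on 6 of 6 plates (all genes 3.50%).

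Mdm2, the p53 target that degrades p53, stood at 44.4, 281 and 871 CPM on the control plates and 34.04, 285 and 256 CPM on the dexamethasone plates, against 108, 228 and 169 and 85.95, 151 and 166 CPM, lower on both day 1 plates and higher on the other 4. Of 19 p53 target genes 1 was lower on 6 of 6 plates (all genes 7.22%) and 0 were higher on 6 (all genes 3.50%). Clustered histone genes, whose transcripts peak in S phase, had list medians of 0.47, 0.51 and 0.02 in control and -0.17, -0.80 and -0.56 with dexamethasone. Of 16 such genes tested 1 was lower (all genes 7.22%) and 1 higher (all genes 3.50%) on 6 of 6 plates. The value on control day 3 turned with the scaling, at -0.34 with library size alone. Interferon genes had medians of -0.83, -0.02 and 0.12 in control and -0.13, 0.86 and 0.54 with dexamethasone. Of 12 tested, 0 were higher on 6 of 6 plates (all genes 3.50%). Their medians on control days 2 and 3 turned with the scaling, at -0.30 and -0.24 with library size alone and 0.06 and 0.26 with size factors.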
